A study of Mus musculus with 6 samples.

Results

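The mitochondrial genome and the machinery that copies, transcribes and processes it were described with 35 genes, of 25576 genes listed with an FPKM in 1 or more of the 6 libraries. They are the 13 mRNA genes that mitochondrial DNA encodes and 22 nuclear genes for its replication, its transcription and the handling of its RNA. The members were chosen by name, and the list was drawn up with the FPKM of the same 6 libraries and their group difference in view, so every value of a member is a description and stands as support for nothing. All 35 were listed, and all 35 had a mean FPKM of at least 0.5, the minimum for the fit used here. FPKM is the number of fragments mapped to a gene, divided by its length and by the fragments mapped in the library, so levels of different genes are compared per length.

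Mitochondrial DNA is a small circle present in many copies per cell, and its mRNAs encode core subunits of the respiratory chain and of ATP synthase. Both strands are transcribed as long polycistronic RNAs by a single dedicated polymerase, and nuclear-encoded enzymes cut the tRNAs out of them, which frees the mRNAs between. Each mRNA is then stabilised, polyadenylated or degraded at its own rate, and neurons draw heavily on the oxidative phosphorylation these genes serve.

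The libraries are bulk RNA-seq of the whole spinal cord of FVB mice at postnatal day 4, 3 libraries for each of 2 groups, and the comparison asks how the cord of mice with spinal muscular atrophy (SMA) differs from that of controls. Control mice carried 1 intact copy of mouse Smn and the human transgene (mSmn+/-, hSMN22tg/0), so they are heterozygotes and not wild type. SMA mice had no intact copy and carried the same transgene (mSmn-/-, hSMN22tg/0). The study's methods describe bulk sequencing in triplicates with n = 1 per group, so the 3 replicates of a group may be technical, and every SD, standard error and p-value here measures the spread between these libraries. Total RNA had been stripped of ribosomal RNA and made into strand-specific libraries. The authors aligned reads with HISAT2 and deposited Cufflinks FPKM on the build mm10, and whether their quantification used the strand is not given in the sources used here.

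Values are given throughout in the order of replicates 1, 2 and 3. Smn1, the targeted gene, had FPKM of 10.4, 8.64 and 11.9 in the control libraries and 8.48, 9.30 and 11.1 in the SMA libraries. The groups overlapped, so this gene did not separate the genotypes and the labels are taken as given; the human transgene was not analysed here. The depth in reads is unknown. Relative to SMA replicate 1, the ratios of the lowest FPKM values put the depths at 1.16, 1.09 and 1.03 for control and at 1.01 and 1.01 for SMA replicates 2 and 3. Summed FPKM was 360694, 413653 and 346181 in control and 366516, 364308 and 368424 in SMA.

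Control replicate 2 stood apart from the other 5 libraries. Its Pearson correlation with them on log2(FPKM + 1), across genes, which are not independent replicates, was between 0.836 and 0.849, and that of the other pairs between 0.983 and 0.992. A list of 48 hepatocyte markers made up 8.94% of its summed FPKM, against 0.0395% and 0.0298% in control replicates 1 and 3 and 0.0258%, 0.0457% and 0.0273% in SMA. Alb, the most abundant of them, had an FPKM of 15895 in control replicate 2 and at most 56.2 elsewhere. Apoc3, Tat, Tdo2, Proc and Mbl2 were at 0 in at least 1 library, none of them in control replicate 2. Of 12 erythroid markers 11 were found by name, all but Ahsp, and they held 4.57% in control replicate 2 against 0.517% and 0.341% in the other controls and 0.304%, 0.472% and 0.362% in SMA. Hbb-bs, the most abundant, reached 7026 there and at most 694 elsewhere. Most log2 fold changes below are therefore given both with all 6 libraries and without control replicate 2.

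The markers of spinal cord cells moved with that library as well. The 12 neuron markers, led by Tubb3, held 0.338%, 0.160% and 0.363% of the summed FPKM in control and 0.326%, 0.357% and 0.355% in SMA, and none was at 0. For the 8 astrocyte markers, led by Aldoc, the shares were 0.234%, 0.156% and 0.239% against 0.227%, 0.250% and 0.230%. The 10 markers of the oligodendrocyte lineage, led by Mbp, held 0.279%, 0.226% and 0.409% against 0.229%, 0.273% and 0.278%, so control replicate 3 was highest. The 7 microglia markers held between 0.0193% and 0.0228% in each library, and 10 skeletal muscle markers, led by Acta1, at most 0.00278%, with Mylpf, Tnni2 and Myog at 0 in some. What part these cell mixtures have in the values below was not tested, and in bulk RNA fewer cells of a type and less RNA per cell cannot be told apart.

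Among the 35 members, limma gave 0 with an adjusted p under 0.05 with all 6 libraries, the background over all 17088 genes tested being 0%, and the smallest adjusted p was 0.683. At an unadjusted p under 0.05 there were 3 higher in SMA (mt-Nd4l, mt-Atp8 and Polrmt; background 3.4%) and 0 lower (background 2.39%). In 5 members every SMA library lay above every control library (mt-Nd1, mt-Nd4l, mt-Atp8, Polrmt and Tefm; background 10.3%), and in 3 every SMA library lay below (Pnpt1, Trmt10c and Hsd17b10; background 6.67%). Rescaling moved these splits: with every library set to the same summed FPKM, 4 members were higher and 1 lower at an unadjusted p under 0.05, and 10 were above and 2 below without overlap, against 7.03% and 6.54% of all genes. Tefm, Pnpt1 and Trmt10c overlapped there. Rescaled by the median of ratios, the counts were 3 and 1, then 3 and 3, against 8.27% and 8.88% of all genes without overlap, and mt-Nd1 and Tefm overlapped. Over all genes the split at an unadjusted p under 0.05 was 581 higher and 409 lower as deposited, 338 and 386 at the same summed FPKM, and 529 and 565 by the median of ratios.

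Leaving out control replicate 2 raised the counts. Again 0 of 35 had an adjusted p under 0.05 in limma (background 0.0121%, 2 of 16574 genes), and the smallest among them was 0.176, for mt-Atp8. At an unadjusted p under 0.05, 12 were higher (background 5.27%), namely Polrmt and 11 mitochondrial mRNAs, all but mt-Co1 and mt-Co3, and 2 were lower (Trmt10c and Hsd17b10; background 5.2%). Without overlap, 17 were higher (background 14.2%) and the same 3 lower (background 13.9%). Other libraries moved the lower counts too. Without control replicate 1, 2 members were lower at an unadjusted p under 0.05 (Polg and Hsd17b10) and 7 lay below without overlap, where the shares of all genes tested were 3.35% and 12.01%. With control replicate 3 left out in its turn, these counts were 2 (Mterf3 and Hsd17b10) and 5, and the shares of all genes 4.16% and 13.5%. The only members higher without overlap were then mt-Nd1, mt-Nd4l, mt-Atp8, Polrmt, Tefm and Fastkd1, against 20.7% of all genes. Without control replicate 1, Fastkd3 and Mtpap took the place of Fastkd1 among them, against 21.6% of all genes.

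The 13 mitochondrial mRNAs had a median log2 fold change of 0.33, SMA against control, and 11 of them were above 0, where the median over all genes tested was 0.04 and 58.0% were above 0. The corresponding values without control replicate 2 were 0.56, 13 of 13, 0.00163 and 50.4%, although mt-Co3 was at −0.04 when those libraries were also rescaled to the same summed FPKM. Control replicate 3 held the lowest value of 12 of the 13, and leaving out this library in place of control replicate 2 gave a median of 0.13 and 9 of 13 above 0, all but mt-Co1, mt-Co3, mt-Atp6 and mt-Cytb. Over all genes tested without control replicate 3, the median was 0.06 and 59.4% were above 0. For the 22 nuclear factors the median was 0.01 with 11 above 0, and 0.01 with 12 above 0 without control replicate 2. That median was −0.02 without control replicate 3 and −0.04 after rescaling by the median of ratios, so its sign depended on the setting.

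**Figure D1:**
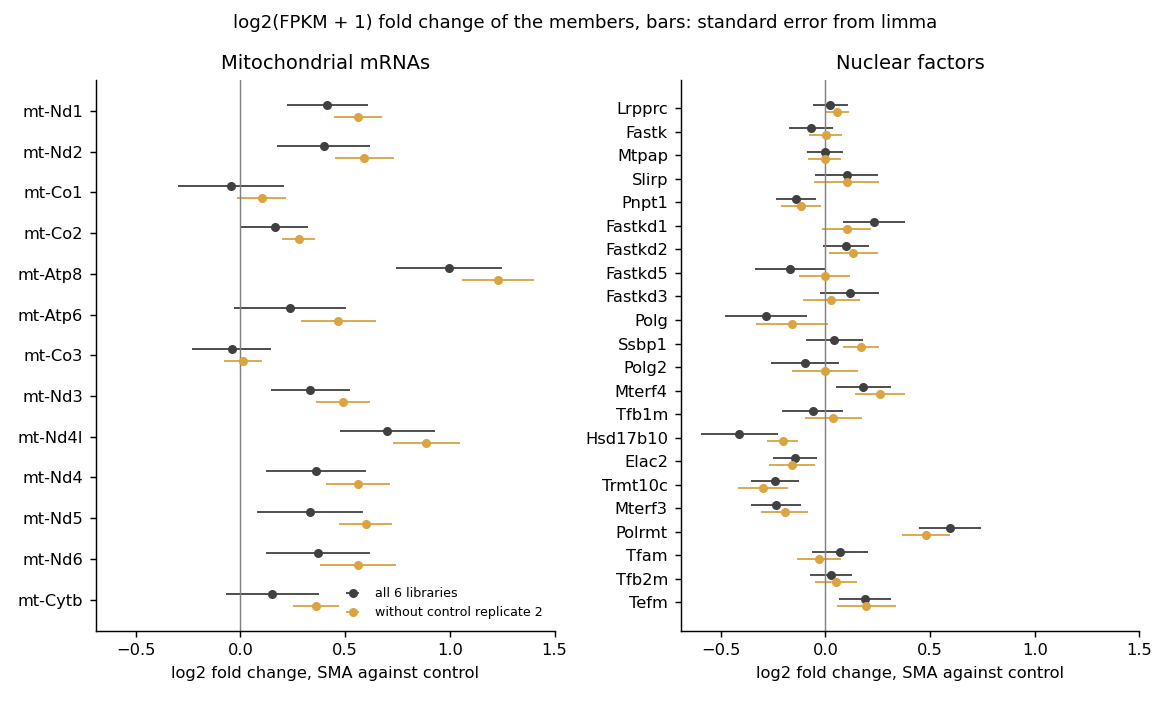
Log2 fold change of the 13 mitochondrial mRNAs, in genome order, and the 22 nuclear factors, grouped by role, on log2(FPKM + 1), SMA against control, with all 6 libraries (dark) and without control replicate 2 (yellow); bars are standard errors from limma. mt-Atp8 lies farthest right at 1.00 and 1.23, and Polrmt is highest among the nuclear factors at 0.60 and 0.48.

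The genes lie close together on the mitochondrial genome, and this bears on how reads can be assigned. mt-Atp8 and mt-Atp6 share 43 bases, mt-Nd4l and mt-Nd4 share 7, mt-Atp6 and mt-Co3 share 1, and mt-Nd5 and mt-Nd6, on opposite strands, share 14. For 7 of the 13 mRNA genes the deposited tables give a joint span with an overlapping neighbour, as they do for 10 of the 22 nuclear factors. The spans given for mt-Nd1, mt-Nd2 and mt-Co1 also run past the end of the gene. mt-Atp8 is the shortest of the 13 at 204 bases and is printed whole, since it had the largest fold change and part of it is also read as mt-Atp6; capitals mark the 43 shared bases (GRCm38, chrMT:7766-7969, plus strand, coding sequence, GENCODE M21).
mt-Atp8: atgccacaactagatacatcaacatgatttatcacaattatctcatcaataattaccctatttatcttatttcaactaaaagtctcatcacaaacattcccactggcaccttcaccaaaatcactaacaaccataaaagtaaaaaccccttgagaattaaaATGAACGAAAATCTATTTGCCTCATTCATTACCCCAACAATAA

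In a block of chromosome 1, GENCODE M21 annotates near-identical copies, whole or partial, of 7 of the 13 genes as unprocessed pseudogenes on the minus strand. The stretches of the block between these annotations were not compared here. These copies were looked at after the values had been seen. Gm28438 matches mt-Nd3 at 344 of 345 bases, Gm10222 matches mt-Nd4l at 294 of 294, Gm28661 matches mt-Co2 at 681 of 681, Gm28437 matches mt-Co3 at 783 of 783, and Gm10925 matches mt-Atp6 at 678 of 678. Gm28439 holds the first 876 bases of mt-Nd4 without a mismatch, and Gm29216 holds 492 bases of mt-Co1 with 6 mismatches (T1056A, C1057T, A1059G, A1060G, C1062A and A1066T, the mitochondrial base first, positions counted from 1 at the first base of the mt-Co1 gene). No such copy of its own is annotated for mt-Nd1, mt-Nd2, mt-Nd5, mt-Nd6, mt-Atp8 or mt-Cytb. Gm10925 matches mt-Atp6 from its first base, so it also holds the 43 bases that mt-Atp8 shares with mt-Atp6. The first 33 bases of mt-Nd3 (chrMT:9459-9491, plus strand, coding) and of its copy (chr1:24613087-24613119, minus strand, pseudogene exon), both GRCm38, show the one base that separates them, T3C from the first base of the gene, in capitals.
mt-Nd3: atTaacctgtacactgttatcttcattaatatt
Gm28438: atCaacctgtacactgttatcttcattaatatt

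The files listed the 5 full-length copies at levels close to those of the mitochondrial genes. Averaged over the 6 libraries, the FPKM of the copy over that of the gene was 1.07 for mt-Nd3, 1.13 for mt-Nd4l, 1.09 for mt-Co2, 1.05 for mt-Co3 and 1.08 for mt-Atp6. For the partial copies it was 0.564 (mt-Nd4) and 0.176 (mt-Co1). A read from an identical stretch cannot be assigned by its sequence. The log2 fold change was 0.78 for Gm10222 beside 0.70 for mt-Nd4l and −0.06 for Gm28437 beside −0.04 for mt-Co3. The partial copy Gm29216 had 0.09 beside −0.05 for mt-Co1, and 0.28 beside 0.10 without control replicate 2. With each copy added to its gene, weighted by length, the median of the 13 was 0.33 with all 6 libraries and 0.53 without control replicate 2.

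**Figure D2:**
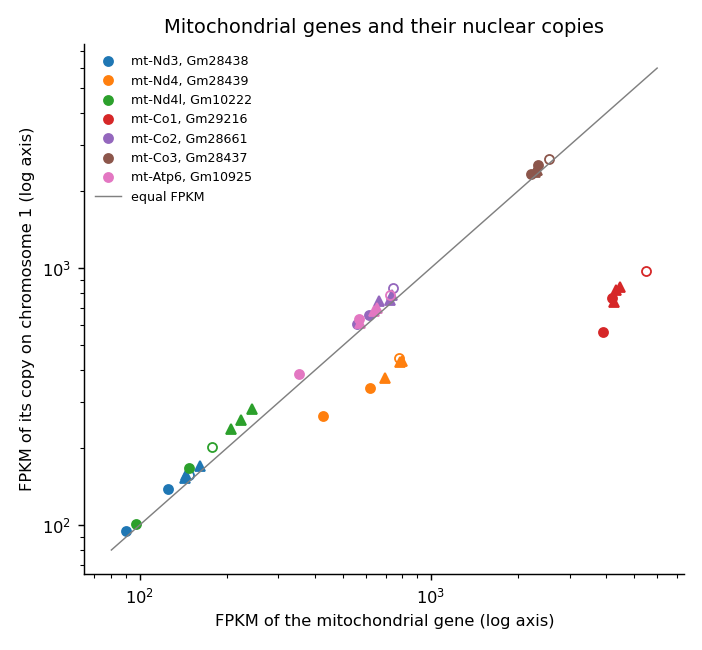
FPKM of 7 mitochondrial genes against that of their copies on chromosome 1, both on log axes, 1 point per library (circles control, open for control replicate 2, triangles SMA; colours are gene pairs, the line is equal FPKM). The 5 full-length copies lie just above the line, at mean ratios of 1.05 to 1.13, and the partial copies of mt-Nd4 and mt-Co1 below it at 0.564 and 0.176.

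Of the 13 mRNAs, 7 encode subunits of complex I, the NADH dehydrogenase. mt-Nd1, whose product helps form the ubiquinone site, had FPKM of 569, 673 and 434 in control and 741, 693 and 769 in SMA. Every SMA library lay above every control library, with a log2 fold change of 0.42 (SE 0.19), or 0.56 (SE 0.12) without control replicate 2 and 0.25 without control replicate 3. mt-Nd2, a proton-pumping subunit, stood at 308, 385 and 215 against 397, 361 and 408, and mt-Nd3, which lies at the hinge between the arms of the complex, at 125, 147 and 89.9 against 144, 143 and 162. In both, control replicate 2 fell inside the SMA range and control replicates 1 and 3 below it. Their log2 fold changes were 0.40 and 0.33, rising to 0.59 and 0.49 when control replicate 2 was left out and falling to 0.17 and 0.14 when control replicate 3 was.

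By mean FPKM over all libraries, as listed, mt-Nd4 was the most abundant complex I mRNA per length and mt-Nd3 the least. With its copy on chromosome 1 added, mt-Nd3 averaged 279, above the 226 of mt-Nd5, for which no copy is annotated. mt-Nd4, another proton-pumping subunit, had FPKM of 620.3, 777 and 426 in control and 786, 694 and 800.0 in SMA, and mt-Nd5, the outermost pump, 188, 284 and 141 and 250.3, 226 and 267. The groups overlapped through control replicate 2, which was the highest of all libraries for mt-Nd5. Log2 fold changes were 0.36 (SE 0.24) and 0.33 (SE 0.25), and 0.56 and 0.60 without that library. Leaving out control replicate 3 gave 0.13 and 0.10. mt-Nd4l, a small membrane subunit whose reading frame runs into that of mt-Nd4, stood at 148, 178 and 97.5 against 223, 205 and 244. Its groups did not overlap, and its log2 fold change was the largest of the 13 after that of mt-Atp8, 0.70 (SE 0.23), or 0.89 (SE 0.16) without control replicate 2 and 0.46 without control replicate 3.

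mt-Nd6 is the one mRNA transcribed from the opposite strand, and it encodes a membrane subunit of complex I. Its FPKM was 373, 435 and 228 in control and 401, 439 and 455 in SMA. Control replicate 2 lay within the SMA range and control replicate 3 was lowest by a wide margin, and the log2 fold change was 0.37 (SE 0.25), or 0.56 (SE 0.18) without control replicate 2 and 0.10 without control replicate 3. Against the geometric mean of the 12 mRNAs of the other strand (the heavy-strand mRNAs), mt-Nd6 had a log2 ratio within each library of −0.23, −0.36 and −0.56 in control and −0.46, −0.24 and −0.34 in SMA. These ratios overlapped, with a difference of 0.04 between the group means, 0.05 without control replicate 2 and −0.05 without control replicate 3. Against the sum of the 12, which mt-Co1 and mt-Co3 dominate, the difference was 0.28, or 0.33 without control replicate 2 and 0.12 without control replicate 3, each with overlap.

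Complex III has a single mitochondrial subunit, the cytochrome b of mt-Cytb. Its FPKM was 612, 843 and 485 in control and 714, 657 and 731 in SMA. Control replicate 2 was the highest library and control replicate 3 the lowest, and the log2 fold change of 0.15 (SE 0.22) became 0.36 (SE 0.11) without control replicate 2 and −0.04 without control replicate 3.

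In complex IV, the cytochrome c oxidase, mt-Co1 and mt-Co3 had the log2 fold changes nearest to 0 of the 13. This held with all 6 libraries and without control replicate 2. Without control replicate 3, mt-Cytb and mt-Atp6 were nearest, at −0.04 and −0.05. mt-Co1, the catalytic subunit and the most abundant of the 35 members per length, had FPKM of 4183, 5496 and 3919.7 in control and 4326, 4249 and 4455 in SMA. mt-Co3, the next most abundant, had 2339, 2548 and 2216 and 2317, 2275 and 2297. This order holds for FPKM as listed: with the copies on chromosome 1 added, mt-Co3 averaged 4777 and mt-Co1 4688. For both, control replicate 2 was the highest library, and the log2 fold changes were −0.05 (SE 0.25) and −0.04 (SE 0.19), each smaller than its standard error; without control replicate 2 they were 0.10 and 0.01, mt-Co1 then without overlap and mt-Co3 with it. Without control replicate 3 they were −0.14 and −0.09, and there mt-Co3 was lower without overlap. mt-Co2, which accepts electrons from cytochrome c, had 557, 741 and 612 against 739, 664 and 723. It was highest in control replicate 2 and lowest in control replicate 1, and its log2 fold change was 0.16 (SE 0.16). Without control replicate 2 it was 0.28 (SE 0.08), where its groups no longer overlapped, and without control replicate 3 it was 0.14. With each library left out in turn, its lowest value was 0.07.

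The 2 ATP synthase genes share bases and differed in log2 fold change. mt-Atp6, the proton channel subunit, had FPKM of 568, 724 and 353 in control and 653, 571 and 637 in SMA, with control replicate 2 highest and control replicate 3 lowest. The log2 fold change was 0.24 (SE 0.27), or 0.47 without control replicate 2 and −0.05 without control replicate 3. mt-Atp8, a small membrane subunit read from the same mRNA, had 71.6, 93.9 and 46.0 against 122, 138 and 149. Every SMA library was above every control library, and the log2 fold change was the largest of all members, 1.00 (SE 0.25, adjusted p = 0.683 in limma), or 1.23 (SE 0.17, adjusted p = 0.176) without control replicate 2. It was 0.72 without control replicate 3, where Polrmt, at 0.74, was larger.

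**Figure D3:**
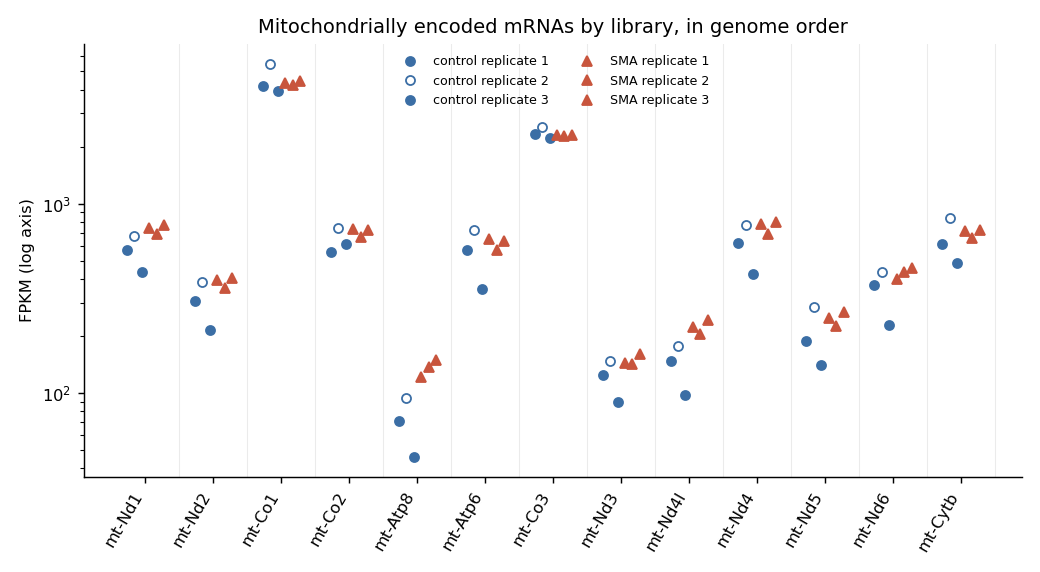
FPKM on a log axis of the 13 mitochondrial mRNAs in genome order, 1 point per library (blue circles control, open for control replicate 2, red triangles SMA). Control replicate 3 is the lowest point for 12 of the 13, and the values run from 46.0 for mt-Atp8 to 5496 for mt-Co1.

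The largest of these fold changes were those of the shortest genes, mt-Atp8 (204 bases) and mt-Nd4l (297), while mt-Nd3 (348), the next shortest, had 0.33. Among tested genes that are not mitochondrially encoded, the 28 with an exon length of up to 250 bases had a median log2 fold change of 0.36, and 0.59 without control replicate 2. For the 249 genes of over 250 and up to 500 bases it was 0.11, and 0.15 without that library. The 42 protein-coding genes among these had a median of −0.89, and the 40 of them tested without control replicate 2 had −0.09. Up to 250 bases only 1 was protein-coding. Genes over 4000 bases had a median of 0.05, and −0.00344 without it. The part of length in the values of mt-Atp8 and mt-Nd4l was not tested.

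Ratios of mitochondrial mRNAs to one another within a library do not depend on how libraries are scaled. The 3 given next separated the groups and were chosen after the values had been seen. The log2 ratio of the complex IV mRNAs to the complex I mRNAs (geometric means of 3 and 7 genes) was 2.64, 2.64 and 3.15 in control and 2.45, 2.46 and 2.35 in SMA. Every SMA library lay below every control library, by −0.39 between the means, −0.48 without control replicate 2 and −0.22 without control replicate 3, which was the highest. With the copies on chromosome 1 added, the first 2 differences were −0.40 and −0.48, and the last −0.23. The log2 ratio of mt-Atp8 to mt-Atp6 was −2.99, −2.95 and −2.94 in control and −2.43, −2.05 and −2.09 in SMA, and that of mt-Nd4l to mt-Nd4 −2.06, −2.13 and −2.13 in control and −1.82, −1.76 and −1.71 in SMA. Both were higher in every SMA library than in any control library, by 0.77 and 0.34, or 0.78 and 0.33 without control replicate 2 and 0.78 and 0.33 without control replicate 3. The 3 controls, replicate 2 included, lay close together.

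As shares of the summed FPKM of the 13 mRNAs, the 7 complex I mRNAs held 21.9, 21.6 and 17.6 percent in control and 24.9, 24.4 and 25.7 percent in SMA, and the 3 complex IV mRNAs 66.4, 65.9 and 72.8 and 62.5, 63.5 and 61.8 percent. mt-Co1 alone held 39.2, 41.2 and 42.3 percent against 36.6, 37.5 and 36.8 percent. The groups did not overlap in these 3 shares, complex I being higher in SMA and complex IV and mt-Co1 lower. The shares are of FPKM as listed, without the copies on chromosome 1. Control replicate 3 differed from control replicate 1 in the same genes. On the log2 scale the difference ran from −0.71 (mt-Nd6) to −0.39 (mt-Nd1) over the 7 complex I mRNAs, while mt-Co1, mt-Co2 and mt-Co3 differed by −0.09, 0.14 and −0.08.

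**Figure D4:**
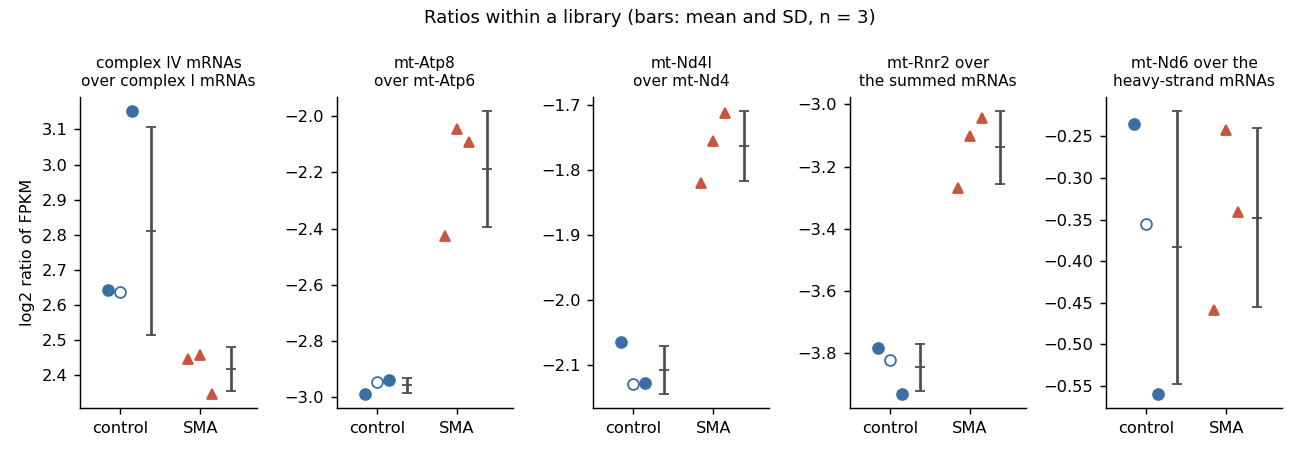
Log2 ratios of FPKM within each library, 1 point per library (blue circles control, open for control replicate 2, red triangles SMA; bars are the mean and SD of 3 libraries). The first 4 ratios do not overlap between the groups, with mean differences of −0.39, 0.77, 0.34 and 0.71, and the ratio of mt-Nd6 to the other strand overlaps.

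The mitochondrial ribosomal RNAs are not members and their precursors are cut from the same transcripts. mt-Rnr2, the large-subunit rRNA, had FPKM of 774, 943 and 608 in control and 1225, 1319 and 1467 in SMA. Its groups did not overlap, with a log2 fold change of 0.80 (SE 0.21), or 0.96 (SE 0.12) without control replicate 2, and relative to the summed 13 mRNAs its log2 ratio was higher by 0.71. mt-Rnr1, the small-subunit rRNA, was listed at only 7.91, 13.8 and 24.2 against 13.4, 24.7 and 16.04, with overlap. Ribosomal RNA was removed in the protocol, and its part in these levels was not tested. No mitochondrial tRNA gene was found by name in the files.

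The 13 mRNAs together held 2.96, 3.22 and 2.68 percent of the summed FPKM in the control libraries and 3.22, 3.11 and 3.28 percent in the SMA libraries. Control replicate 2 sat within the SMA range and the other controls below it. The difference between the means was 0.253 percentage points with overlap, 0.388 without control replicate 2 and no overlap, and 0.116 without control replicate 3. With hepatocyte, erythroid and skeletal muscle markers taken out of the denominator, the share of control replicate 2 became 3.72% and the difference 0.0899 points. The control libraries were the more variable. The median coefficient of variation of the 13 mRNAs was 28.2% over 3 control libraries and 6.51% over 3 SMA libraries, and it was 23.1% for control replicates 1 and 3 and 15.8% for control replicates 1 and 2.

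The 22 nuclear factors ran from an FPKM of 1.57 to 34.8 over all libraries, far below the mitochondrial mRNAs per length. Their median coefficient of variation was 12.6% in control, 10.5% in control without either replicate 2 or replicate 3 and 7.24% in SMA. In 14 of the 22 (63.6%) the groups overlapped both with all 6 libraries and without control replicate 2, as they did in 71.9% of all genes tested in both comparisons. The other 8 are Polrmt, Tefm, Lrpprc, Ssbp1, Mterf4, Pnpt1, Trmt10c and Hsd17b10.

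Polrmt, the RNA polymerase that transcribes mitochondrial DNA, had FPKM of 7.95, 6.85 and 10.2 in control and 13.7, 11.99 and 13.2 in SMA. Every SMA library lay above every control library, and the log2 fold change of 0.60 (SE 0.15, adjusted p = 0.683 in limma) was the largest in size of the 22; without control replicate 2 it was 0.48 (SE 0.12, adjusted p = 0.304), and without control replicate 3 0.74. Tefm, the elongation factor of that polymerase and the least abundant of the transcription factors here, stood at 3.01, 2.72 and 2.36 against 3.02, 3.11 and 3.49. Its lowest SMA value only just exceeded the highest control value, and the log2 fold change was 0.19 (SE 0.13), or 0.20 (SE 0.14) without control replicate 2. Without control replicate 3 it was 0.12, and its groups overlapped after either rescaling. Mterf3, a member of the mTERF family, had the highest mean FPKM of this role over all libraries, although Polrmt was higher in each SMA library. Its values were 13.3, 13.3 and 11.1 against 10.1, 9.76 and 11.7, with overlap. The log2 fold change of Mterf3 was −0.24 (SE 0.12), or −0.19 (SE 0.11) without control replicate 2.

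Tfam, which packages mitochondrial DNA and activates its promoters, and Tfb2m, which opens the promoter for the polymerase, overlapped in both comparisons. Their log2 fold changes were 0.07 (SE 0.13) and 0.03 (SE 0.10), and −0.03 and 0.05 without control replicate 2.

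The promoters of 20 of the 22 nuclear factors were found by symbol in the RefSeq table (GRCm38.p6, 250 bases before to 50 after the gene's start), all but Mterf3 and Mtpap. They were searched on both strands for the core of the ETS motif bound by the GABP (NRF-2) proteins, CCGGAAG, and for a core of the NRF-1 motif, GCGCANGCG, as these are the textbook regulators of such genes. The ETS core was in 11 of the 20 (55%) and in 8.86% of all 32851 promoters of the table, the NRF-1 core in 3 of the 20 (15%) and in 6.25% of all, and either in 13 of the 20 (65%) and in 13.9% of all. The 32851 were not restricted to genes listed or tested in these libraries, so they are not a matched background. Polrmt is printed because it had the largest difference of the 22 and is the only one of these promoters with both cores. It holds 1 ETS core, with its first base at −43 from the start, and 2 overlapping NRF-1 cores, at −5 and 1, all on the reverse strand and all in capitals (chr10:79746532-79746831, minus strand). A match is a description of letters, not a bound site.
Polrmt promoter: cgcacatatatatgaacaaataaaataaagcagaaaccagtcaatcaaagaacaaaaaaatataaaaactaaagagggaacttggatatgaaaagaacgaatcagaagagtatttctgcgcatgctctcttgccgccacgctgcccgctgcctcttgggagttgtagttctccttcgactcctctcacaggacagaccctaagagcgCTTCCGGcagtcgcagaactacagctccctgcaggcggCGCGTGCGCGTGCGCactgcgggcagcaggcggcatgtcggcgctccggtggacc

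The factors of replication overlapped when all libraries were used. Polg, the catalytic subunit of the mitochondrial DNA polymerase and the most abundant of this role, had FPKM of 14.6, 24.5 and 23.8 in control and 17.4, 16.4 and 16.1 in SMA. Control replicate 1 was below the SMA libraries and the other controls above, with a log2 fold change of −0.28 (SE 0.20). It was −0.51 without control replicate 1 and −0.16 (SE 0.17) without control replicate 2. Polg2, its accessory subunit and the least abundant, had 2.13, 2.56 and 1.71 against 2.16, 1.57 and 2.04, and a log2 fold change of −0.10 (SE 0.16), or −0.00103 (SE 0.16) without control replicate 2 and −0.20 without control replicate 3. Ssbp1, the single-stranded DNA-binding protein of the replication fork, had 13.7, 18.3 and 13.9 against 16.99, 15.5 and 14.5. Control replicate 2 was its highest library, and its log2 fold change went from 0.04 (SE 0.14) to 0.17 (SE 0.09) without that library, where the groups did not overlap. It was −0.02 without control replicate 3 and −0.01 by the median of ratios.

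For the mitochondrial ribosome, Mterf4, which takes part in assembling the large subunit, had FPKM of 7.12, 7.77 and 5.81 in control and 7.54, 7.54 and 8.71 in SMA. Control replicate 2 lay inside the SMA range, and the log2 fold change was 0.18 (SE 0.13), or 0.26 (SE 0.12) without it and without overlap. Leaving out control replicate 3, its lowest library, gave 0.08. Tfb1m, which methylates the small-subunit rRNA, stood at 2.33, 3.00 and 2.19 against 2.18, 2.66 and 2.21. Its groups overlapped in both comparisons, with log2 fold changes of −0.06 and, without control replicate 2, 0.04. The value without control replicate 3 was −0.13.

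Among factors of mRNA stability and turnover, Lrpprc, which binds and stabilises the mRNAs in a complex with Slirp, was the most abundant, with FPKM of 28.9, 30.6 and 28.2 in control and 29.8, 29.7 and 29.6 in SMA. The SMA libraries lay within a narrow band between control replicates 1 and 2, and the log2 fold change was 0.02 (SE 0.08), or 0.06 (SE 0.06) without control replicate 2, again no larger than its standard error although the groups did not overlap there. It was −0.03 after rescaling by the median of ratios. Pnpt1, the polynucleotide phosphorylase that degrades mitochondrial RNA, had 8.41, 8.88 and 8.30 against 7.25, 8.19 and 7.49. Every SMA library lay below every control library, with a log2 fold change of −0.14 (SE 0.10), and −0.12 without control replicate 2. Fastkd3, the least abundant of this role and one of the FASTK family of RNA-binding proteins, had 3.57, 2.58 and 3.02 against 3.22, 3.82 and 3.11, with overlap and a log2 fold change of 0.12 (SE 0.14), or 0.03 (SE 0.14) without control replicate 2.

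All 3 tRNA-processing enzymes had a log2 fold change below 0. Hsd17b10 and Trmt10c form, with the nuclease Prorp, the enzyme that cuts the 5′ ends of mitochondrial tRNAs. Hsd17b10 had FPKM of 22.4, 34.8 and 22.3 in control and 20.5, 19.2 and 18.2 in SMA. Every SMA library lay below every control library, and control replicate 2, the library with hepatocyte markers, was far above the rest; the log2 fold change was −0.41 (SE 0.18), and −0.20 (SE 0.07) without it and −0.51 without control replicate 3. Trmt10c stood at 4.76, 4.10 and 4.70 against 3.61, 4.00 and 3.39. It was lower in each SMA library than in any control library, with log2 fold changes of −0.24 (SE 0.11) and −0.30 (SE 0.12). The nearest values of the groups, control replicate 2 and SMA replicate 2, were close.

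The remaining 9 nuclear factors are Tfam and Tfb2m, described above, Slirp, Fastk, Fastkd1, Fastkd2 and Fastkd5, the poly(A) polymerase Mtpap, and Elac2, which cuts the 3′ ends of tRNAs. They had FPKM between 3.77 and 26.5, overlapped in both comparisons, and had log2 fold changes between −0.17 and 0.23, or between −0.16 and 0.13 without control replicate 2.

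**Figure D5:**
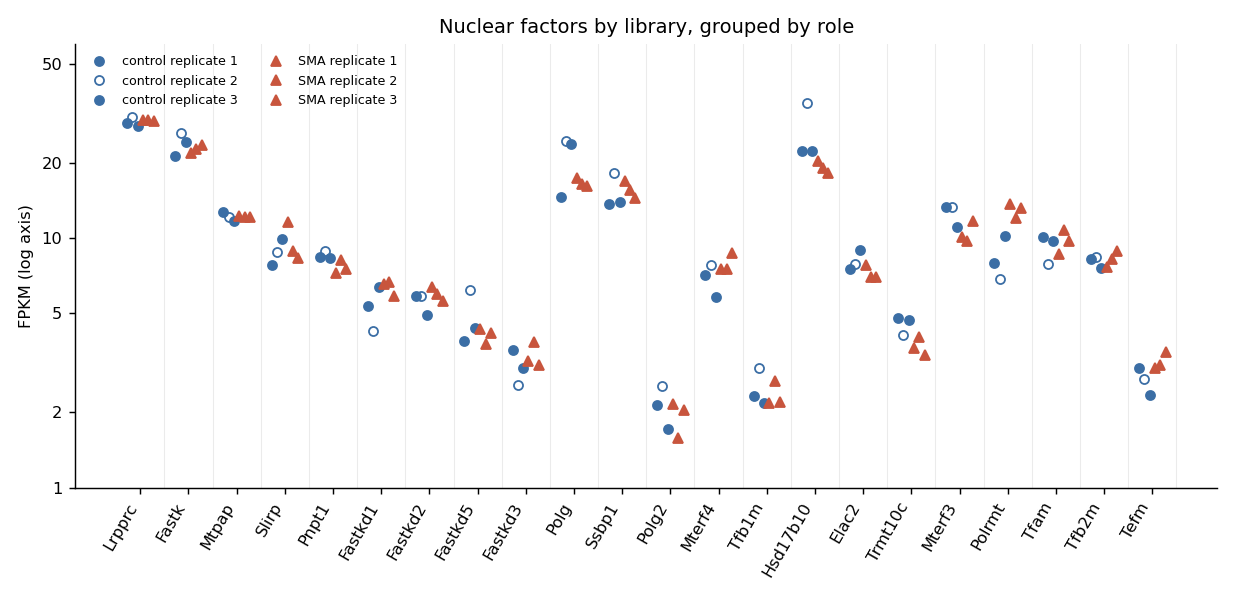
FPKM on a log axis of the 22 nuclear factors, grouped by role and ordered by mean level within it, 1 point per library (blue circles control, open for control replicate 2, red triangles SMA). Polrmt is higher in all 3 SMA libraries (11.99 to 13.7) than in any control library (6.85 to 10.2), and Hsd17b10 is lower (18.2 to 20.5 against 22.3 to 34.8).

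Lists of other genes of mitochondrial gene expression and respiration gave 0 genes with an adjusted p under 0.05 in limma in either comparison. Over all genes tested, 3.4% were higher and 2.39% lower at an unadjusted p under 0.05 with all 6 libraries, and the median log2 fold change was 0.04. The corresponding values without control replicate 2 were 5.27%, 5.2% and 0.00163. Of 15 further genes for replication and maintenance of mitochondrial DNA, 0 were at an unadjusted p under 0.05 in either direction in either comparison, and the median log2 fold change was −0.02, or −0.00201 without control replicate 2. Tk2, the mitochondrial thymidine kinase, had FPKM of 11.5, 9.09 and 12.7 in control and 13.3, 15.01 and 13.3 in SMA, without overlap, and a log2 fold change of 0.31 (SE 0.14), or 0.18 (SE 0.09) without control replicate 2. Of 30 further genes for transcription and RNA processing, 1 was higher at an unadjusted p under 0.05 and 0 lower, with a median of 0.06, or 0.01 without control replicate 2. That gene was Mrm3, listed under its older name Rnmtl1, which methylates the large-subunit rRNA. It had 5.04, 4.18 and 4.21 against 6.92, 6.65 and 6.96, without overlap, and a log2 fold change of 0.52 (SE 0.11), or 0.48 (SE 0.11) without control replicate 2. The most abundant of this list, the helicase Dhx30, had 31.9, 25.3 and 33.2 against 36.1, 34.2 and 36.1, without overlap, and a log2 fold change of 0.24 (SE 0.12), or 0.12 (SE 0.06) without control replicate 2. In that comparison Supv3l1, the helicase that works with Pnpt1, was the 1 gene lower at an unadjusted p under 0.05, with a log2 fold change of −0.26 (SE 0.10); it was singled out after its values were seen.

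For translation, 0 of 12 mitochondrial translation factors and 0 of 22 genes that charge mitochondrial tRNAs (19 for synthetases and 3 for subunits of an amidotransferase) were at an unadjusted p under 0.05 in either direction, and the medians were −0.03 and 0.03, or −0.04 and 0.02 without control replicate 2. Oxa1l, which inserts the newly made proteins into the inner membrane, had FPKM of 17.1, 17.2 and 18.2 in control and 20.1, 20.4 and 20.03 in SMA. These did not overlap, and the log2 fold change was 0.19 (SE 0.08), or 0.18 without control replicate 2, where it was the 1 translation factor at an unadjusted p under 0.05. Tufm, the elongation factor and the most abundant of its list, overlapped with a log2 fold change of −0.01, or 0.03 without control replicate 2. No gene of the tRNA-charging list was at an unadjusted p under 0.05 there either.

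Of 9 nuclear regulators of mitochondrial biogenesis, 1 was higher at an unadjusted p under 0.05 and 0 lower, and the median was 0.10, or −0.02 without control replicate 2. Ppargc1b, a coactivator of such genes, had FPKM of 2.88, 2.15 and 2.71 in control and 3.83, 4.85 and 5.22 in SMA. All 3 SMA libraries were above the controls, with a log2 fold change of 0.65 (SE 0.15), or 0.56 (SE 0.14) without control replicate 2. Its relative Ppargc1a had 12.4, 7.39 and 10.4 against 10.4, 12.1 and 11.1 and overlapped, as did Nrf1, at 10.4, 14.3 and 12.6 against 14.8, 12.95 and 12.2. Without control replicate 2, Ppargc1b was again the 1 regulator at an unadjusted p under 0.05.

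Most subunits of the respiratory chain and ATP synthase are nuclear-encoded and assemble with the mitochondrial ones. Of 69 nuclear subunits of complexes I, III, IV and V, 4 were higher (Atp5l, Ndufa6, Ndufs5 and Ndufa3) at an unadjusted p under 0.05 and 0 lower, with a median log2 fold change of 0.02; without control replicate 2 these were 6 higher, 4 lower (Cox5b, Ndufv2, Cox6a1 and Uqcrc2) and −0.03. Ndufa3 and these 4 were singled out after their values were seen. Atp5l, a membrane subunit of ATP synthase, had FPKM of 117, 79.3 and 86.1 in control and 133, 146 and 151 in SMA, and Ndufa6, of complex I, 24.8, 23.4 and 23.4 and 29.1, 29.6 and 33.2. Neither overlapped, and the log2 fold changes were 0.62 (SE 0.16) and 0.35 (SE 0.09), or 0.51 and 0.33 without control replicate 2. Atp5b, the catalytic subunit of ATP synthase and the most abundant of the 69 per length, had 597, 529 and 565 against 515, 536 and 526, with overlap and a log2 fold change of −0.10 (SE 0.13), or −0.14 (SE 0.06) and no overlap without control replicate 2. Of 16 other mitochondrial proteins, 0 were at an unadjusted p under 0.05 and the median was −0.05, while without control replicate 2 the median was −0.09 and 4 were lower, singled out after their values were seen: Cs, Vdac2, Vdac3 and Cycs, with log2 fold changes of −0.14, −0.18, −0.19 and −0.24.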

How the data were processed

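FPKM of 6 spinal cord libraries, 3 per group, were read from the tables the authors deposited, which hold Cufflinks FPKM computed on mm10 from HISAT2 alignments. Genes absent from a table were set to 0. Members were matched by gene name. Groups were taken from the labels. limma 3.58.1 in R 4.3.3 (empirical Bayes with a trend) was fitted to log2(FPKM + 1) of every gene whose FPKM averaged 0.5 or more, p-values were two-sided and adjusted by Benjamini-Hochberg over all genes tested, and the fit was tested on simulated data. The same was done without control replicate 2. The members and lists were chosen with earlier results of these data known. Full values are given for the mitochondrial mRNAs and for nuclear factors whose groups did not overlap or that were the most or least abundant of their role. Abundance was ranked by mean FPKM over all libraries. Of each other list, genes were named among the 3 most abundant and the 3 with the smallest p, or, where the text says so, after their values were seen. Some genes of these lists are not reported here. Alternatives were other pseudocounts, filters and scalings, a replicate block and each library left out; adding the nuclear copies, and rescaling without control replicate 2, were chosen after seeing the data. Coordinates and sequences are from GENCODE M21 and RefSeq, build GRCm38.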

Additional observations from a re-analysis of the deposited data

How the results depend on the processing

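Of 551 values of single members over all settings, 547 moved by less than the spread between replicates and 4 moved by more. Leaving out a single library cannot move a value by more than this spread, and the filters and the replicate block leave the fold change unchanged. These counts are therefore no measure of stability. The sign was the same under every setting for 22 of the 35 members and for 9 of the 13 mitochondrial mRNAs. mt-Atp8 and Polrmt were higher at an unadjusted p under 0.05 under every setting, and mt-Nd4l under all but the one without SMA replicate 3.

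Members lower at an unadjusted p under 0.05 numbered 0 as reported and 1 after rescaling to the same summed FPKM, to the same sum of genes not mitochondrially encoded, or by the median of ratios, where 2.39%, 2.26%, 2.1% and 3.3% of all genes were. Members higher without overlap numbered 10, 10 and 3 in that order, where 7.03%, 7.6% and 8.27% of all genes were, and those lower without overlap 1 at the same sum of genes not mitochondrially encoded, where 6.24% of all genes were. The median of the 22 nuclear factors was −0.0447 by the median of ratios. With the summed heavy-strand mRNAs as reference, the mt-Nd6 difference was 0.28, or 0.12 without control replicate 3.

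Leaving out each library in turn gave 2 to 12 members higher and 0 to 2 lower at an unadjusted p under 0.05, 6 to 17 higher and 3 to 7 lower without overlap, and a median of the nuclear factors from −0.0212 to 0.0149. Over all genes tested, 1.25% to 6.07% were then higher and 0.731% to 5.2% lower at an unadjusted p under 0.05, and 13.5% to 21.6% higher and 8.74% to 13.9% lower without overlap. Rescaling without control replicate 2 was added after seeing the data. Rescaled by the median of ratios as well, 12 were higher and 2 lower at an unadjusted p under 0.05, and 16 were higher without overlap, against 5.06%, 5.41% and 13.7% of all genes. At the same summed FPKM, 12 were higher and 2 lower, 13 were higher and 6 lower without overlap, and the nuclear median was −0.0232. Of all genes, 3.14% were then higher and 8.82% lower, 8.87% higher and 20.7% lower without overlap, and 38.7% had a log2 fold change above 0. The causes were not tested.

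The deviations of control and SMA libraries of the same replicate number correlated at −0.0370, 0.0161 and 0.0766, and those of different numbers at −0.0554 to 0.0434. Deviations from a mean of 3 libraries are tied to one another, so these values cannot settle whether the numbers are pairs. The numbers were not treated as pairs. With the replicate block in the fit, 3 members were higher and 0 lower at an unadjusted p under 0.05, and over all genes 356 were higher and 303 lower.

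The depth in reads is unknown, so counting error could not be given. Whether the replicates of a group come from the same RNA is not stated, 1 control library holds liver and blood transcripts, and another holds the lowest value of most mitochondrial mRNAs. Reads shared with the copies on chromosome 1 and between overlapping genes had been divided by the authors' quantification in a way that the files do not show.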

Other observations

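In several other genes of the mitochondrial lists control replicate 2 was the outlying library. Gabpb2, a subunit of the GABP transcription factor, had FPKM of 6.01, 10.7 and 4.84 in control and 5.24, 4.91 and 5.20 in SMA, and the control value farthest from the rest was that of replicate 2. The mitochondrial chaperone Hspa9 had 67.4, 90.5 and 62.3 against 58.8, 65.8 and 63.2, again with control replicate 2 highest. Vdac1, the main channel of the outer membrane, had 173, 112 and 159 against 139, 157 and 152, with control replicate 2 lowest. Phb2, a prohibitin of the inner membrane, was lower in each SMA library than in any control library, at 54.8, 56.7 and 54.5 against 60.5, 73.9 and 59.5, with a log2 fold change of −0.21 (SE 0.11), or −0.12 (SE 0.05) without control replicate 2. Ndufs5, a small subunit of complex I, was higher in each, at 8.87, 9.24 and 8.79 against 7.45, 4.95 and 6.67, with a log2 fold change of 0.45 (SE 0.15), or 0.31 (SE 0.09) without control replicate 2.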
